A study of Mus musculus with 58 samples.

Results

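The 8 tendon genes Kera, Chad, Fmod, Tnmd, Thbs4, Comp, Scx and Mkx were chosen by gene symbol, with earlier results of these data known. Each was found on 1 probe set, out of 23185 named genes in the table. Microarrays measured RNA of the diaphragm and of the tibialis anterior (a shin muscle) from adult female mice of the NSG strain, which is immunodeficient and tolerates human grafts. PDX (patient-derived xenograft) mice carried pieces of pancreatic ductal adenocarcinoma, taken from 4 cachectic patients and fixed to the mouse pancreas, and sham mice had the operation without a tumour. Mice were killed once the tumour-bearing animals were severely cachectic, that is wasted, or their tumours had passed 3 cm in diameter. Each muscle had 17 PDX arrays, which were 3, 5, 5 and 4 in cohorts 1, 2, 3 and 4, and 12 sham arrays, 3 in each cohort. A cohort is the set of mice that received the tumour of 1 patient, so the tumour donor and the experimental round cannot be told apart. All mice lacked lymphocytes, as the strain does, and the labels do not say that each array came from a separate animal, so a p-value here reflects how these samples vary, which may be technical.

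Tendon joins muscle to bone, and a piece of muscle taken for RNA can carry some of it. Its cells, tenocytes, lie between parallel bundles of type I collagen, and they secrete small leucine-rich proteoglycans and thrombospondins that bind the collagen and set how its fibrils form. In the embryo the transcription factors scleraxis (Scx) and Mohawk (Mkx) direct the tendon programme, and mice that lack either of them form defective tendons. Kera (keratocan), Fmod (fibromodulin) and Chad (chondroadherin) encode leucine-rich proteins of the matrix, Tnmd (tenomodulin) a membrane protein used as a marker of mature tendon cells, and Thbs4 and Comp members of the thrombospondin family. For short, these 6 genes are called matrix genes below, although Tnmd encodes a membrane protein. Because whole pieces of muscle were used, fewer tendon cells and less RNA per tendon cell cannot be told apart in any value given here.

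Scx is a basic helix-loop-helix protein and binds DNA at E-boxes, which have the letters CANNTG. Windows for 5 of the 8 genes, Kera, Chad, Fmod, Tnmd and Thbs4, were taken from the RefSeq promoter table (GRCm38.p6). This count does not show whether that table lacks a window for the other genes. The window of Kera is not shown or searched here, since 243 of its 250 bases lie inside the span that the gene table gives for Kera. The other 4 lie just before the start of genes that differed with the tumour, and they are shown because Scx itself did not pass the test in either muscle. They run 5′ to 3′, the 250 bases end just before the start, and capitals mark E-boxes, searched on both strands.
Fmod, chr1:134037004-134037253, plus strand: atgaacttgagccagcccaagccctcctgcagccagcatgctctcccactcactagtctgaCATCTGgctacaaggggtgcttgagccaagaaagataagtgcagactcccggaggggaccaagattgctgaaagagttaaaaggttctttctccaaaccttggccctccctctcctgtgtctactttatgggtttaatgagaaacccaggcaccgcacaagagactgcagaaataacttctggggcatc
Chad, chr11:94564797-94565046, plus strand: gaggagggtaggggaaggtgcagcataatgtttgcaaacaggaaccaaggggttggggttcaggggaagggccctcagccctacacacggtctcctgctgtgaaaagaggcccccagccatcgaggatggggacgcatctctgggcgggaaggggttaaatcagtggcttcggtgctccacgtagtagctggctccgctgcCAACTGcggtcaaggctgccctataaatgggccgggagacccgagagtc
Tnmd, chrX:133850758-133851007, plus strand: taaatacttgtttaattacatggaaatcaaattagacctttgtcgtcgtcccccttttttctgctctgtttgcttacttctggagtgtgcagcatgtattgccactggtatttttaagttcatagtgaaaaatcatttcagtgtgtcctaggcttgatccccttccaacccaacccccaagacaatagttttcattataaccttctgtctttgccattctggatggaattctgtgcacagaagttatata
Thbs4, chr13:92794819-92795068, minus strand: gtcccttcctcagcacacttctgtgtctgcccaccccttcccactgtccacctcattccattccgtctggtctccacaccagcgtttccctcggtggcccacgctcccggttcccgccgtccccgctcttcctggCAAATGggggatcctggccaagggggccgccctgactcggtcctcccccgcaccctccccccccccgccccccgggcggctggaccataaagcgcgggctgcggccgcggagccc

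Each of Fmod, Chad and Thbs4 had 1 E-box in this window, at base -189, -49 and -115 from the start. Tnmd had 0. Fmod alone of the 4 had the letters CATCTG, the reverse complement of CAGATG. Of the 32851 windows of this length that were counted, 66.2% held at least 1 match to CANNTG and 14.4% held CAGATG on either strand. A match was therefore common and is given as a description of the letters only.

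In the coordinates of the gene table (GRCm38.p6), Kera lies on chromosome 10 at 97606962 to 97613688, Chad on chromosome 11 at 94565047 to 94569127, Fmod on chromosome 1 at 134037254 to 134048280 and Tnmd on chromosome X at 133851008 to 133865577. Thbs4 lies on chromosome 13 at 92751586 to 92794818, Comp on chromosome 8 at 70373548 to 70382066, Scx on chromosome 15 at 76457411 to 76459468 and Mkx on chromosome 18 at 6934966 to 7004779. All 8 are protein-coding. Scx lies inside the span of Bop1, Chad shares bases with Acsf2 and Comp with Gm51533. Bop1 differed by 0.04 in the tibialis anterior (adjusted p = 0.79 from limma) and Acsf2 by 0.10 (adjusted p = 0.716), on the log2 scale, PDX minus sham.

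Array medians lay between 3.702 and 3.862 on the log2 scale, with the median of all values at 3.78. The 1082 olfactory receptor genes, taken as mostly unused in muscle, had a median of 1.77 and a 95th percentile of 3.49 and served as a yardstick for dim signals, chosen after the values had been seen. In the diaphragm, 11 of 29 arrays (6 PDX and 5 sham) had high signals of liver cell genes: the mean over 13 hepatocyte markers was 8.96 to 10.98 on these arrays, against 4.28 to 7.70 on the others. Results without these 11 arrays are given for the limma tests of the 8 genes and for tests of the others against Scx and Mkx. The kept arrays are not free of liver signal. PDX replicate 2 of cohort 1 (7.70) and sham replicate 3 of cohort 4 (7.27) were kept. So were PDX replicates 2 of cohort 3 (6.91) and 4 of cohort 4 (6.88), and the other kept arrays lay at 4.28 to 5.06. In cohort 1 only sham replicate 1 and PDX replicate 2 remain, and in cohort 3 sham replicate 3 is the only sham array. Each cohort keeps an equal weight in these fits. Overlap counts, correlations and gene lists of the diaphragm use all 29 arrays. Tibialis anterior arrays had lower values of the same mean, which ran from 3.43 to 6.21 on PDX arrays and from 3.27 to 5.34 on sham arrays. Of the cartilage and bone markers, 0 of 16 passed in either muscle, with means of 3.04 to 3.36 on PDX arrays and 2.99 to 3.45 on sham arrays of the tibialis anterior. No named gene was left out as dim: all 8 tendon genes were tested.

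In the tibialis anterior, PDX arrays had lower levels of the matrix genes of tendon than sham arrays, and Scx did not pass the test. Of the 8 genes, 7 were lower (limma, Benjamini-Hochberg adjusted p under 0.05 over all 23185 genes) and 0 higher, where 6.53% of all genes were lower and 6.32% higher. The median difference of the 8 genes was -1.41 on the log2 scale, against -0.01 over all named genes. In the order of all genes from the most negative difference, Kera stood at place 3, Chad at 4, Fmod at 8, Tnmd at 10 and Thbs4 at 21. The 8 genes were chosen with earlier results of these data known, so the count, median and places only describe them. All differences are PDX minus sham on the log2 scale, averaged over the 4 cohorts with equal weight, with limma's standard error (SE).

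**Figure D1:**
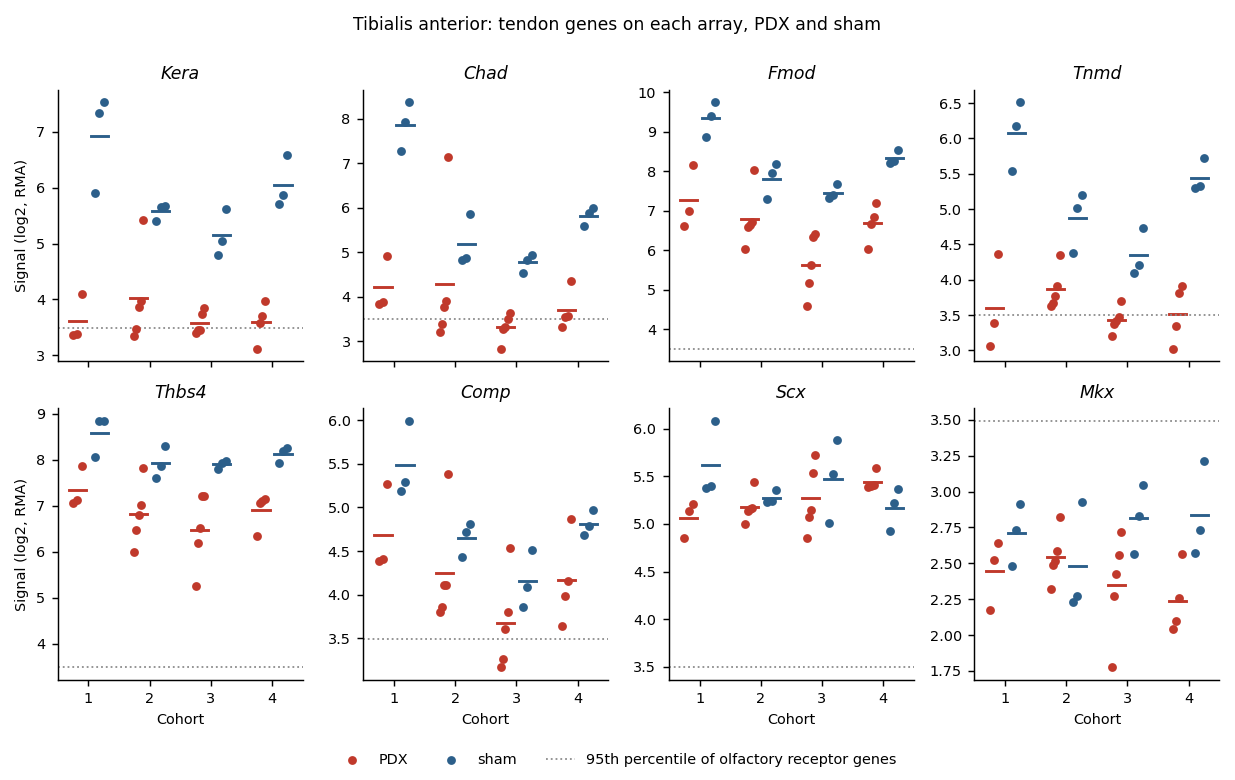
Each point is the log2 RMA signal of a tendon gene on 1 tibialis anterior array, with PDX left of sham in each of the 4 cohorts, bars at group means and a dotted line at the 95th percentile of olfactory receptor genes (3.49). Kera, Chad, Fmod, Tnmd and Thbs4 sit lower on PDX arrays in all 4 cohorts, Scx does not, and Mkx lies under the dotted line on every array.

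Kera, a proteoglycan gene best known from the cornea and also expressed in tendon, had the largest difference of the 8. Its signal was 3.11 at the lowest, 3.58 at the median and 5.43 at the highest on the 17 PDX arrays, and 4.79, 5.69 and 7.53 on the 12 sham arrays. The groups overlapped through a single PDX array: 16 of 17 PDX arrays lay below every sham array of their cohort. The difference was -2.23 (SE 0.19, 0.213-fold, adjusted p = 1.36e-08), with cohort values of -3.31, -1.56, -1.57 and -2.47. On 8 of the 17 PDX arrays, but 0 of 12 sham arrays, Kera was not above the yardstick of 3.49, where a further fall may not show.

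Chad, whose protein binds integrins and collagen, was lowest at 2.83, 3.56 at the median and 7.13 at the highest on PDX arrays, against 4.54, 5.73 and 8.36 on sham arrays. The PDX array at 7.13 was replicate 3 of cohort 2, and the other 4 PDX arrays of that cohort lay between 3.21 and 3.90. The difference was -2.03 (SE 0.27, 0.244-fold, adjusted p = 1.10e-05), and it was -2.21 without this array (adjusted p = 1.71e-10). Cohort 1 gave -3.64 and cohort 2 gave -0.91. On 6 of 17 PDX arrays, but 0 of 12 sham arrays, Chad was not above 3.49. Sham arrays of cohort 1 stood at 7.28 to 8.36, and all 9 others at 4.54 to 5.99.

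Fmod, which binds type I collagen and shapes its fibrils, was bright in both groups. PDX arrays ran from 4.58 to 8.17 with a median of 6.62, and sham arrays from 7.31 to 9.74 with a median of 8.19. Here too 16 of 17 PDX arrays fell below the sham arrays of their own cohort. The difference was -1.64 (SE 0.21, 0.32-fold, adjusted p = 3.89e-06) and the cohort values were -2.07, -1.01, -1.83 and -1.66.

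Tnmd was the gene with the cleanest split: all 17 PDX arrays lay below every sham array of their cohort. Its signal was 3.02, 3.63 and 4.36 (lowest, median and highest) on PDX arrays and 4.10, 5.25 and 6.51 on sham arrays. The difference was -1.58 (SE 0.13, 0.335-fold, adjusted p = 1.98e-08), and the cohorts gave -2.47, -1.001, -0.91 and -1.93. On 8 PDX arrays and 0 sham arrays Tnmd was not above 3.49.

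Thbs4, a thrombospondin of tendon and of the muscle-tendon junction, was between 5.25 and 7.87 on PDX arrays (median 7.05) and between 7.60 and 8.85 on sham arrays (median 8.02). Its cohort values were the closest together of the 6 matrix genes that fell, at -1.24, -1.11, -1.42 and -1.21. The difference was -1.24 (SE 0.18, 0.422-fold, adjusted p = 3.54e-05), and 16 of 17 PDX arrays lay under their own sham arrays.

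Comp, the cartilage oligomeric matrix protein and the closest relative of Thbs4 in the list, differed less. It was 3.17, 4.11 and 5.38 (lowest, median and highest) on PDX arrays and 3.86, 4.75 and 5.99 on sham arrays, so the groups overlapped widely. The difference was -0.58 (SE 0.17, 0.667-fold, adjusted p = 0.0179), with the same sign in 4 of 4 cohorts (-0.81, -0.40, -0.48 and -0.65) and no cohort free of overlap. Without cohort 1 the adjusted p was 0.113, and without cohort 4 it was 0.0784.

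Scx was well above the dim range on every array and showed no difference past the test. Its signal was 4.85, 5.16 and 5.72 (lowest, median and highest) on PDX arrays, and 4.93, 5.36 and 6.08 on sham arrays. The difference of -0.15 (SE 0.098, adjusted p = 0.415) had a 95% interval of -0.35 to 0.055. The 4 cohorts gave -0.56, -0.10, -0.20 and 0.27: PDX and sham arrays did not overlap in cohort 1, with PDX lower, nor in cohort 4, with PDX higher (5.60% of all genes). limma's F test for unequal cohort effects gave an adjusted p of 0.695 over all genes.

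Mkx had the weakest signal. It was 1.78, 2.49 and 2.82 (lowest, median and highest) on PDX arrays and 2.23, 2.73 and 3.21 on sham arrays, under the 3.49 yardstick on all 29 arrays. The difference was -0.31 (SE 0.10, 0.805-fold, adjusted p = 0.0407). Leaving out single arrays ended this call in 15 of 29 fits, with adjusted p between 0.0237 and 0.0989, and so did leaving out cohort 1 (0.106), cohort 3 (0.143) or cohort 4 (0.309). It was also lost with arrays centred on their median (0.0532), with an additive model of cohort and treatment (0.0554) and with cohorts as the replicates (0.139). Those arrays were PDX replicates 2 and 3 of cohort 1, 3, 4 and 5 of cohort 2, 4 of cohort 3 and 1, 2 and 3 of cohort 4, and sham replicates 2 and 3 of cohort 1, 1 of cohort 2, 2 and 3 of cohort 3 and 3 of cohort 4.

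Counted by cohort, groups without overlap and with PDX lower were seen in cohort 1 for 6 of the 8 genes (12.6% of all genes), in cohort 2 for 1, Tnmd (2.85%), in cohort 3 for 5 (5.46%) and in cohort 4 for 6 (6.76%). The 5 of cohort 3 were Kera, Chad, Fmod, Tnmd and Thbs4, and cohort 1 added Scx and cohort 4 Mkx. Cohort 2 held the single high PDX array described for Chad, on which Kera, Fmod, Tnmd, Thbs4, Comp and Scx were also the highest of their 5 PDX arrays. Without that array, 7 of the 8 genes, all but Mkx, had no overlap in cohort 2 with PDX lower (4.75% of all genes). The array was singled out on the values of these same genes, so a higher count without it is no support. Tnmd fell by 1.61 without that array, Comp fell by 0.66 (adjusted p = 0.00224), and Mkx missed the threshold (adjusted p = 0.0502). The F test for unequal cohort effects passed for 0 of the 8 genes in the diaphragm (0.00431% of all genes) and 0 in the tibialis anterior (0.0129%). In that count limma's smallest adjusted p was 0.277, for Tnmd in the tibialis anterior.

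Whether the matrix genes and the factor genes fell to the same extent was tested by taking, on each array, the matrix gene minus the factor gene, and by shuffling PDX and sham within cohorts 100000 times (two-sided permutation test, adjusted over the 12 pairs of a muscle). All 12 differences were below 0 in the tibialis anterior, and 11 of them passed the test. Each matrix gene is counted against both factor genes, so the 12 are not separate results. The share of other genes that would pass was not counted. Against Scx, all 6 matrix genes had a lower difference: -2.08 for Kera (95% interval -2.51 to -1.66, adjusted p = 2.4e-05), -1.89 for Chad (adjusted p = 0.00012), -1.50 for Fmod, -1.43 for Tnmd and -1.10 for Thbs4 (adjusted p = 2.4e-05 each) and -0.44 for Comp (interval -0.80 to -0.079, adjusted p = 0.0155). An unadjusted p of 1e-05 is the smallest that this number of shuffles can give, and Kera, Fmod, Tnmd and Thbs4 reached it against Scx. The sign was the same in 4 of 4 cohorts for each of the 6. Without cohort 4, the Comp difference was -0.28 (adjusted p = 0.151).

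Against Mkx, 5 of 6 matrix genes had a lower difference, from -1.92 for Kera (adjusted p = 4e-05) to -0.93 for Thbs4 (adjusted p = 0.000105). Comp minus Mkx was -0.27 with an interval of -0.68 to 0.14 (adjusted p = 0.152), so a difference of either sign remains possible. Mkx lay in the dim range on all arrays, where a fall may show only in part, and Scx lay above it.

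**Figure D2:**
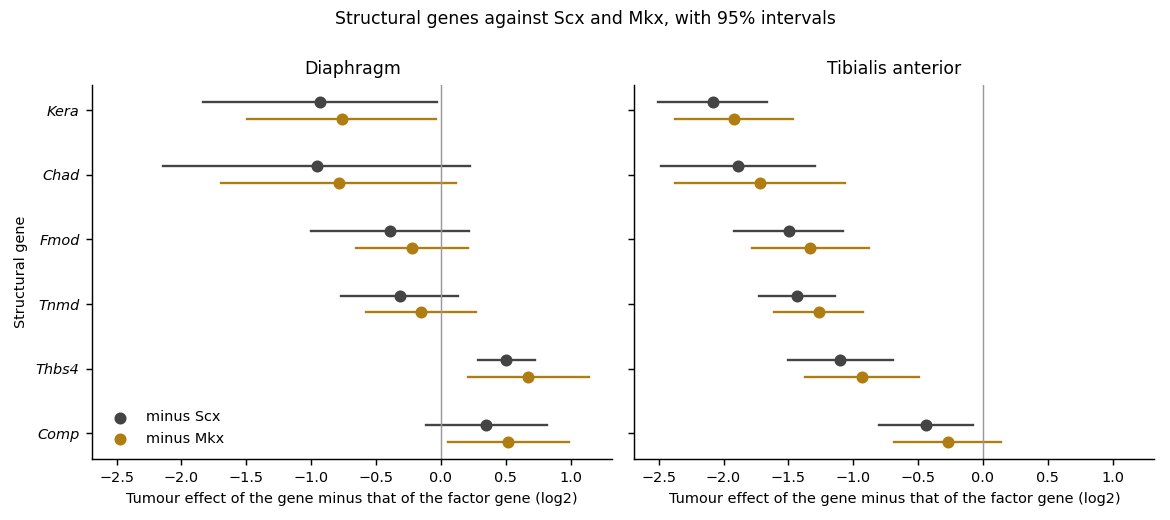
Points are the tumour effect (PDX minus sham, log2) of each matrix gene minus that of Scx (grey) or Mkx (ochre), with 95% intervals, diaphragm left and tibialis anterior right. In the tibialis anterior every interval but that of Comp minus Mkx lies below 0, and in the diaphragm Thbs4 lies above 0 against both.

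In the diaphragm, Thbs4 was higher on PDX arrays than on sham arrays and the other 7 genes did not pass the test. Of the 8 genes, 1 was higher (Thbs4; 5.89% of all genes were higher) and 0 were lower (6.58% of all genes). The median difference of the 8 genes was -0.04, against -0.004 over all genes. Thbs4 was 7.67, 8.47 and 9.33 (lowest, median and highest) on PDX arrays and 7.22, 7.68 and 8.25 on sham arrays, and 12 of 17 PDX arrays lay above every sham array of their cohort while 0 lay below. It rose by 0.71 (SE 0.13, 1.63-fold, adjusted p = 0.000827), with cohort values of 1.06, 1.15, 0.20 and 0.43. Its PDX arrays lay above its sham arrays without overlap in cohort 1 (9.73% of all genes) and cohort 2 (6.94%). Without the 11 arrays with liver signal it rose by 0.68, from a fit that kept a single PDX and a single sham array in cohort 1. With the 4 cohorts taken as the replicates, its adjusted p from limma was 0.0714.

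**Figure D3:**
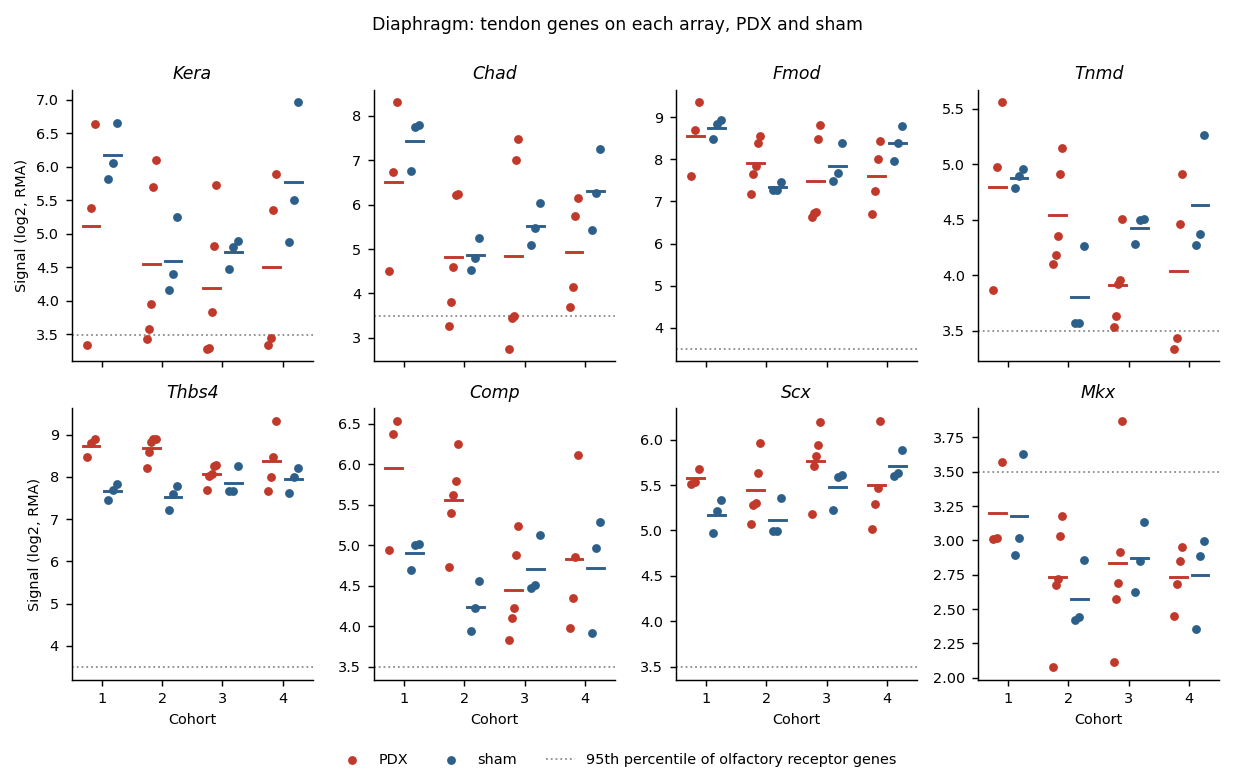
Log2 RMA signal of each tendon gene on each diaphragm array, PDX left of sham in each cohort, bars at group means, dotted line at the 95th percentile of olfactory receptor genes. Thbs4 is higher on PDX arrays in cohorts 1 and 2 without overlap, and the PDX arrays of Kera, Chad, Fmod and Tnmd spread above and below their sham arrays.

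Comp moved in the direction of Thbs4 without passing. It was 3.82, 4.94 and 6.54 (lowest, median and highest) on PDX arrays and 3.92, 4.63 and 5.29 on sham arrays, with a difference of 0.55 (SE 0.22, adjusted p = 0.116). Cohorts 1 and 2 gave 1.05 and 1.32, the groups of cohort 2 without overlap, and cohorts 3 and 4 gave -0.25 and 0.10. Without PDX replicate 3 of cohort 1 the adjusted p was 0.0416, without cohort 4 it was 0.0467, and without the arrays with liver signal it was 0.176.

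Kera and Chad had negative differences in all 4 diaphragm cohorts and passed in none of the fits that left out an array. Kera was 3.28, 3.95 and 6.64 on PDX arrays (lowest, median and highest) and 4.16, 5.07 and 6.96 on sham arrays, a difference of -0.73 (95% interval -1.52 to 0.064, adjusted p = 0.265). Chad was 2.75, 4.60 and 8.30 on PDX arrays and 4.53, 5.75 and 7.78 on sham arrays, a difference of -0.76 (interval -1.78 to 0.27, adjusted p = 0.409). Both intervals hold falls as well as values near 0. The spread within cohorts was wide on PDX arrays, with an SD of 1.73 for Chad on PDX arrays and 0.616 on sham arrays, and of 1.28 for Kera on PDX arrays and 0.654 on sham arrays.

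That spread ran across genes on the same arrays. In cohort 3, PDX replicates 1, 2 and 3 had 3.46, 2.75 and 3.49 for Chad and 6.75, 6.63 and 6.74 for Fmod, while PDX replicates 4 and 5 had 7.02 and 7.48 for Chad and 8.49 and 8.81 for Fmod. The 3 sham arrays of that cohort lay between these, at 5.09 to 6.04 for Chad and 7.48 to 8.39 for Fmod. Counted over the muscle, 9 PDX arrays were below and 5 above all sham arrays of their cohort for Chad, and 7 below and 7 above for Fmod. Of the PDX arrays with liver signal, some were high for Chad (replicate 1 of cohort 1 at 8.30) and some low (replicate 1 of cohort 2 at 3.81), and the part of liver RNA in this spread was not tested.

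Fmod and Tnmd did not pass in the diaphragm. Fmod ran from 6.63 to 9.35 on PDX arrays (median 7.83) and from 7.27 to 8.94 on sham arrays (median 8.17), with a difference of -0.19 (SE 0.25, adjusted p = 0.741). Tnmd ran from 3.34 to 5.56 on PDX arrays (median 4.19) and from 3.57 to 5.27 on sham arrays (median 4.44), with a difference of -0.12 (SE 0.19, adjusted p = 0.8). In cohort 2 both were on the other side of 0, at 0.59 and 0.74.

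The factor genes did not pass either. Scx was 5.02, 5.53 and 6.21 (lowest, median and highest) on PDX arrays and 4.97, 5.35 and 5.89 on sham arrays, with a difference of 0.20 (95% interval -0.04 to 0.44, adjusted p = 0.32), and 10 of 17 PDX arrays lay above their cohort's sham arrays. Cohorts 1 to 4 gave 0.40, 0.33, 0.29 and -0.21 for Scx, and the groups of cohort 1 did not overlap, with PDX higher (9.73% of all genes). Mkx was 2.08, 2.85 and 3.87 on PDX arrays and 2.36, 2.87 and 3.63 on sham arrays, a difference of 0.034 (adjusted p = 0.938), and 3 of the 29 arrays, 2 PDX and 1 sham, were above the 3.49 yardstick. Without the 11 arrays with liver signal, none of Kera, Chad, Fmod, Tnmd, Comp, Scx and Mkx passed, with adjusted p between 0.176 and 0.928.

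Of the 12 matrix gene minus factor gene differences in the diaphragm, 8 were below 0 and 4 above, and only 2 passed the test, both above 0. Thbs4 minus Scx was 0.50 (95% interval 0.28 to 0.73, adjusted p = 0.00732, permutation test) and Thbs4 minus Mkx was 0.67 (interval 0.21 to 1.14, adjusted p = 0.0314). Neither passed without the arrays with liver signal (0.37, adjusted p = 0.335, and 0.62, adjusted p = 0.288) or without cohort 1, 2 or 4. Kera minus Scx was -0.93 (interval -1.84 to -0.03, adjusted p = 0.108).

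**Figure D4:**
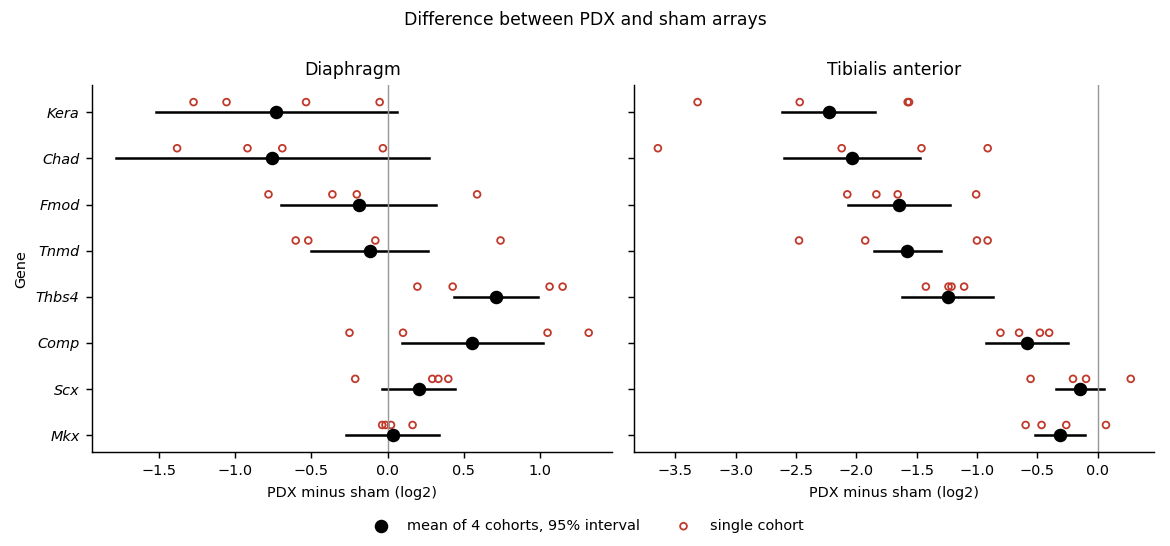
Black points are PDX minus sham (log2, mean of 4 cohorts) with 95% intervals and open red circles are single cohorts, diaphragm left and tibialis anterior right, on separate horizontal scales. All 6 matrix genes lie below 0 in the tibialis anterior in every cohort, and in the diaphragm only the interval of Thbs4 and of Comp lies above 0.

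The tumour effect itself differed between the muscles for 5 of the 8 genes, each with the diaphragm effect above the tibialis anterior effect (3.66% of all genes differed in this direction, 6.33% in either). Thbs4 had the largest difference, 1.95 (SE 0.24, adjusted p = 2.16e-07), from effects of 0.71 in the diaphragm and -1.24 in the tibialis anterior. Tnmd differed by 1.46 (SE 0.24, adjusted p = 3.44e-05), Fmod by 1.45 (SE 0.33, adjusted p = 0.00376), Comp by 1.14 (SE 0.29, adjusted p = 0.0097) and Kera by 1.50 (SE 0.44, adjusted p = 0.0291). Chad, with 1.28 (95% interval 0.09 to 2.47, adjusted p = 0.222), Scx, with 0.35 (adjusted p = 0.2), and Mkx, with 0.35 (adjusted p = 0.313), did not pass. Without the diaphragm arrays with liver signal the differences were 1.92 for Thbs4, 1.51 for Tnmd, 1.56 for Fmod, 1.32 for Comp and 1.59 for Kera. That fit kept single diaphragm arrays in some groups of cohorts 1 and 3. The Kera call was lost without any 1 of the cohorts (adjusted p from 0.0505 to 0.182) and without PDX replicate 1 of cohort 1 or sham replicate 2 of cohort 4 in the diaphragm or sham replicate 2 of cohort 1 in the tibialis anterior, and the Comp call without cohort 1 (0.151) or 2 (0.139).

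Between the sham muscles, which show the genes without a tumour, only Tnmd of the 8 passed. Sham diaphragm arrays had 3.57, 4.44 and 5.27 for Tnmd (lowest, median and highest), and sham tibialis anterior arrays 4.10, 5.25 and 6.51. The difference, diaphragm minus tibialis anterior, was -0.75 (SE 0.18, 0.596-fold, adjusted p = 0.000903), where 24.5% of all genes were lower in the sham diaphragm and 15.2% higher. Kera, at -0.61 (SE 0.34, adjusted p = 0.145), and Thbs4, at -0.38 (SE 0.18, adjusted p = 0.0896), did not pass. Chad, Fmod, Comp, Scx and Mkx had differences between -0.15 and 0.13. Leaving out the arrays with liver signal gave -0.72 for Tnmd, from a fit that kept a single sham diaphragm array in cohort 1 and in cohort 3.

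Within groups, most pairs of matrix genes varied together from array to array. After subtracting the mean of each cohort and treatment, the 15 pairs of matrix genes had Pearson's r of 0.23 to 0.95 in the diaphragm (median 0.774) and of 0.49 to 0.85 in the tibialis anterior (median 0.718), over 29 arrays each. Of these, 12 of 15 in the diaphragm and 15 of 15 in the tibialis anterior passed a permutation test (100000 resamples within groups, adjusted over the 28 pairs of a muscle). In the tibialis anterior Fmod and Thbs4 were closest (r = 0.849, Spearman's rho = 0.87, adjusted p = 0.00056 and 0.000336), and r was 0.851 without the 2 arrays farthest from the median. In the diaphragm Chad and Fmod were closest (r = 0.954, rho = 0.949, adjusted p = 0.000112 and 0.00014), and r was 0.935 without 2 arrays. The genes of a pair share the tissue piece and the hybridisation of each array. The share of all gene pairs that would pass was not counted. The counts here, and those of Scx and Mkx below, therefore do not show a trait particular to tendon genes. The diaphragm values include the arrays with liver signal.

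Scx passed with 1 of the 6 matrix genes in the diaphragm and with 2 in the tibialis anterior. Its r with the 6 matrix genes was between -0.17 and 0.68 in the diaphragm, where only Thbs4 passed (r = 0.68, adjusted p = 0.0062, but rho = 0.459, adjusted p = 0.0622, and r = 0.51 without 2 arrays), and between 0.27 and 0.46 in the tibialis anterior. There Chad (r = 0.363, adjusted p = 0.0206) and Fmod (r = 0.458, adjusted p = 0.0329) passed by r and neither by rho (adjusted p = 0.126 and 0.0819), and without 2 arrays r was 0.292 and 0.316. Mkx passed with 3 genes in the diaphragm, Chad (r = 0.732), Fmod (r = 0.627) and Kera (r = 0.565), and with 0 in the tibialis anterior (r of 0.11 to 0.32). Scx and Mkx had r = -0.31 in the diaphragm (adjusted p = 0.22) and 0.22 in the tibialis anterior (adjusted p = 0.414). Whether r differs between Scx and the matrix genes was not tested.

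**Figure D5:**
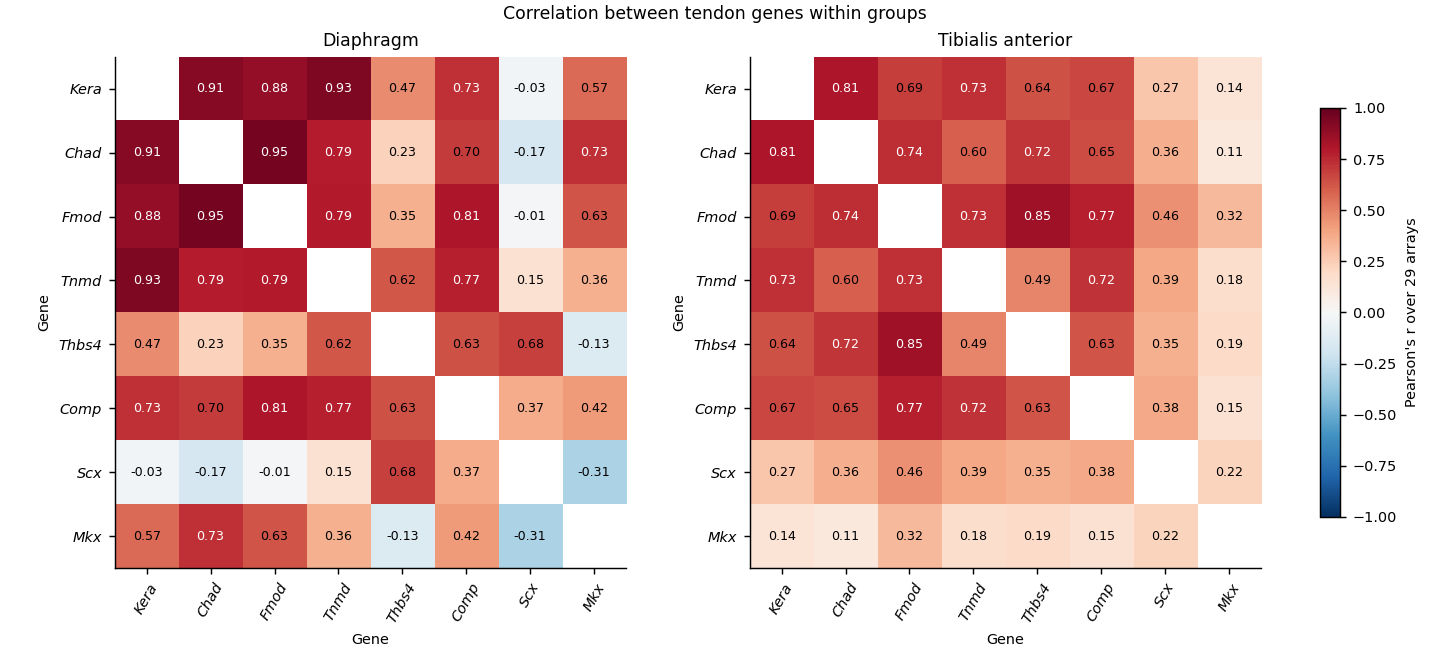
Pearson's r between the 8 genes over 29 arrays of the diaphragm (left) and of the tibialis anterior (right), after the mean of each cohort and treatment was subtracted. Pairs among Kera, Chad, Fmod and Tnmd have r of 0.60 to 0.95 over both muscles. In the tibialis anterior, pairs with Thbs4 or Comp reach similar values (0.85 for Fmod and Thbs4), and the rows of Scx and Mkx are paler. In the diaphragm the row of Scx is paler except with Thbs4 (0.68).

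The genes most like Tnmd and Scx were taken as the 5 non-members with the highest r over the same 29 arrays. For Tnmd they were Ogn (0.792), Egfl6 (0.791), Angptl7 (0.791), Abi3bp (0.771) and Sgce (0.763) in the diaphragm, and Col1a1 (0.768), Col1a2 (0.757), Col3a1 (0.752), Sorbs2 (0.72) and Abi3bp (0.715) in the tibialis anterior. Col1a1, Col1a2 and Col3a1 encode chains of the fibrillar collagens I and III. For Scx they were Col5a1 (0.847), Akt1 (0.821), Zfas1 (0.813), 4933430I17Rik (0.811) and Evl (0.81) in the diaphragm, and Kazald1 (0.78), Drap1 (0.769), Slc25a10 (0.761), Renbp (0.729) and Nfatc2 (0.714) in the tibialis anterior.

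Other genes of tendon were listed beside the 8. In each list the counts stand against 6.53% lower and 6.32% higher over all genes in the tibialis anterior, and 6.58% lower and 5.89% higher in the diaphragm. Of the 6 collagens of tendon fibres, 6 were lower on PDX arrays of the tibialis anterior: Col1a1 at -2.55 (SE 0.15), Col1a2 at -1.99 (SE 0.14), Col3a1 at -1.89 (SE 0.14) and Col5a1, which helps to start fibrils, at -0.68 (SE 0.084). In the diaphragm 4 of the 6 were higher and 0 lower, with Col1a2 at 0.71 (SE 0.17), Col1a1 at 0.68 (SE 0.18), Col3a1 at 0.66 (SE 0.18) and Col5a2 at 0.59 (SE 0.15). The difference between the muscles passed for all 6, and for Col1a1 it was 3.23 (SE 0.25, adjusted p = 7.08e-13).

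Among 22 further genes of tendon cells, sheath and matrix, 16 were lower and 1 higher in the tibialis anterior, with a median difference of -0.60. Lum (lumican, -1.21, SE 0.15), Bgn (biglycan, -1.03, SE 0.12), Tppp3 (-0.98, SE 0.12), a marker of the tendon sheath, and Ogn (osteoglycin, -0.93, SE 0.20) had the largest falls. In the diaphragm 6 of the 22 were higher and 3 lower, led by Cpxm2 (1.10, SE 0.15) and Tppp3 (-0.84, SE 0.12). Tppp3 thus fell in both muscles.

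Of 16 members of the small leucine-rich proteoglycan family, Kera, Fmod and Chad included, 11 were lower and 0 higher in the tibialis anterior, and 2 were higher and 2 lower in the diaphragm. The 2 that rose there were Podn (podocan, 0.72, SE 0.11) and Bgn (0.64, SE 0.11). Of 5 thrombospondin genes, 3 were lower in the tibialis anterior (Thbs4, Comp and Thbs3 at -0.48, SE 0.11) and 3 were higher in the diaphragm (Thbs2 at 0.87, SE 0.11, Thbs4, and Thbs3 at 0.60, SE 0.11).

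Of 23 measured genes that signal to tendon cells or control their formation, 1 was lower and 3 higher in the tibialis anterior (6.53% and 6.32% of all genes): the growth factor gene Tgfb3 at -0.40 (SE 0.076), and Tgif1, a repressor in the TGF-beta pathway, at 0.55 (SE 0.16), Tgfbr1 at 0.37 (SE 0.11) and Tgfbr3 at 0.34 (SE 0.069). In the diaphragm 5 were higher and 0 lower (5.89% and 6.58% of all genes), with the receptor gene Tgfbr2 at 0.61 (SE 0.093) and Ccn2, a matrix-linked growth factor gene, at 0.54 (SE 0.12). Of 11 genes of the muscle-tendon junction, 5 were lower and 1 higher in the tibialis anterior (Nes at -0.61, SE 0.11, Lama2 at -0.54, SE 0.09, and the integrin gene Itga7 at 0.42, SE 0.066), and 1 was lower and 1 higher in the diaphragm.

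Some markers of other cell types passed too, and their counts stand against the same shares of all genes (6.53% lower and 6.32% higher in the tibialis anterior, 6.58% and 5.89% in the diaphragm). Of 13 fibroblast and fibro-adipogenic progenitor markers, 12 were lower and 0 higher in the tibialis anterior, with a mean signal of 5.08 to 6.50 on PDX arrays and of 6.48 to 7.10 on sham arrays, and Mfap5 fell by 1.37 and Dpt by 1.35. In the diaphragm 3 were higher and 2 lower, with means of 6.94 to 7.96 on PDX arrays and of 6.89 to 7.53 on sham arrays. Of 11 muscle fibre markers, 3 were higher and 0 lower in the tibialis anterior (Actn3 at 0.17, Des at 0.16 and Myh4 at 0.13). Of 9 mesothelium markers, 3 were higher and 0 lower in the diaphragm, led by Msln at 0.90, and of 7 adipocyte markers 2 were lower and 0 higher there. The part of fibroblast, fibre, mesothelial or liver RNA in the tendon gene differences was not tested.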

How the data were processed

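Per the labels, biotin-labelled RNA went onto Affymetrix arrays. The table (58 arrays, 25206 probe sets) is as the authors deposited it, in log2 units judged by the range of the values. It comes from RMA, using affy (version 1.36.1) and R (version 2.15.1) according to the submitters' processing notes. No genome build is given for the array data. The platform annotation named 23185 probe sets and left 2021 unnamed. There were 0 columns of other series. The number of arrays limits the precision, and no depth applies. The highest correlation between 2 arrays was 0.993.

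The members and gene lists were chosen with earlier results of these data known. The text names the 8 members, up to 4 genes of a list with the largest difference past the threshold in a muscle (or the 2 with the smallest p), and the 5 genes most like Tnmd and Scx. Not every gene so chosen is printed. Lists were counted, not tested.

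Fits used limma 3.58.1 and statmod 1.5.0 (R 4.3.3). Each muscle had a mean per cohort and treatment. PDX minus sham was averaged over 4 equally weighted cohorts. Differences between muscles came from a fit of 58 arrays in 16 groups. Benjamini-Hochberg adjustment ran over 23185 genes, two-sided, threshold 0.05. Pairs and correlations used permutation tests (100000 resamples) in Python 3.11.15 with numpy 2.4.6 and scipy 1.17.1. Methods were tested on simulated data. Equally numbered samples were not taken as pairs. Both muscles carry the same sample numbers, and the labels do not say whether equal numbers mark the same mouse. Deviations of such samples correlated with a median r of 0.025 across muscles (over 0.1 in 7 of 29 pairs), which does not settle it. Between PDX and sham, r ran from -0.64 to 0.65 in the diaphragm (median 0.071, over 0.1 in 6 of 12 pairs). In the tibialis anterior it ran from -0.20 to 0.14 (median -0.011, over 0.1 in 1 of 12). Alternatives were other scalings, a filter on dim genes, array weights, other models, and leaving out arrays, cohorts or the diaphragm arrays with liver signal (over 1 log2 unit above the median array, a threshold on the mean of the hepatocyte markers).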

Additional observations from a re-analysis of the deposited data

Results flagged for a closer look

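Of 48 combinations of a gene and a group with 4 or more arrays, 4 held an array that stood apart from the others, where chance gives about 1 in 20. Chad was 7.13 on PDX replicate 3 of cohort 2 in the tibialis anterior, with the other 4 arrays at 3.21 to 3.90, and Comp was 5.38 on the same array, with the others at 3.80 to 4.11. In cohort 4 of that muscle, Scx was 5.59 on PDX replicate 2, with the others at 5.39 to 5.41, and Thbs4 was 6.35 on PDX replicate 1, with the others at 7.06 to 7.16.

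The tumour effect differed between the muscles, diaphragm minus tibialis anterior, for 5 genes by limma's test of the difference: Thbs4 by 1.95, Kera by 1.50, Tnmd by 1.46, Fmod by 1.45 and Comp by 1.14.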

How the results depend on the processing

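In the tibialis anterior, 5 to 7 of the 8 genes were lower and 0 higher in all 12 settings tried, and the calls of Kera, Chad, Fmod, Tnmd and Thbs4 stood in each. Of 12 pairs, 10 or 11 passed as lower. With each sample number as a replicate block, Mkx had -0.33 (adjusted p = 0.0506) and Comp -0.49 (adjusted p = 0.145); the block ended no other call. The filter on dim genes left out Mkx, which then has no value. In the diaphragm, 0 genes were lower in all 13 settings; 2 were higher without cohort 4 (Thbs4 and Comp) and 0 with cohorts as the replicates. Tumour effects differed between muscles for 3 genes without cohort 1 and for 3 without cohort 2. Between sham muscles 2 genes were lower without cohort 3 and 2 with array weights (Tnmd and Thbs4 both times). Of the diaphragm pairs, 0 passed as higher without cohort 1, 0 without cohort 2, 4 without cohort 3, 0 without cohort 4 and 0 without the arrays with liver signal, an alternative added after seeing the data for the pairs only. The count without PDX replicate 3 in cohort 2 of the tibialis anterior (7 genes without overlap, against 1) was also added after seeing the data.

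Some uncalled differences changed sign. In the diaphragm, Mkx was -0.0091 without cohort 2, Tnmd 0.019 without cohort 3 and 0.047 without cohort 4, and Fmod 0.0074 without cohort 4. Between sham muscles, Scx was 0.13 without cohort 1, 0.032 without cohort 2 and 0.036 with array weights, Comp 0.016 without cohort 1, and Chad -0.085 without cohort 3 and -0.14 without the arrays with liver signal, where Mkx was -0.036. Leaving out single arrays, diaphragm Tnmd ran from -0.21 to 0.0014, Mkx from -0.031 to 0.090 and sham Scx from -0.074 to 0.042. The diaphragm had 1 to 2 genes higher, 0 to 3 pairs that passed as lower (3 without PDX replicate 5 of cohort 3) and 1 to 2 that passed as higher, where Thbs4 minus Mkx lost its call in 8 of 29 fits.

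Counts over all genes moved more. For the tibialis anterior, with 1514 lower and 1465 higher, they were 748 and 678 without cohort 1, and 607 and 515 with cohorts as the replicates. In the diaphragm, with 1526 lower and 1366 higher, they were 821 and 680 without cohort 1, 557 and 461 with cohorts as the replicates, and 676 and 762 without the arrays with liver signal; 669 were higher without cohort 2 and 930 lower without cohort 4. For the difference between muscles, with 619 lower and 849 higher, they were 165 and 366 without cohort 1, 326 and 379 without cohort 2, and 1333 and 1357 with array weights, and 329 were lower without cohort 4. Between sham muscles, with 5690 lower, 3736 were lower without cohort 1 and 2883 without the arrays with liver signal. With arrays centred on their median, the F test passed for 0 genes in the tibialis anterior (3 as deposited) and 2 in the diaphragm (1 as deposited). Leaving out cohorts or arrays leaves fewer samples. The cause of the other changes was not tested.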
